A study of Mus musculus with 12 samples.

Results

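Wnt signaling in the mature cochlea was examined through 60 genes, namely 19 Wnt ligands, 4 R-spondins, 10 Frizzled receptors, the co-receptors Lrp5 and Lrp6, 10 secreted antagonists, 3 Dishevelled genes, Axin1 and the beta-catenin gene Ctnnb1, 4 TCF/LEF transcription factors and 6 feedback inhibitors. They were taken by symbol from the 55348 genes counted, and Sfrp3 was found under its symbol Frzb. The choice used no measured value but was made with earlier results of these data known. The set therefore reached beyond ligands, receptors and antagonists to the intracellular and nuclear steps of the pathway. Organs of Corti were taken for RNA sequencing from mice at postnatal day 21 in 4 genotypes, with 3 libraries each and 12 in all. Clrn1-/- mice carried a constitutive deletion of exon 4 of Clrn1, made by crossing floxed mice with PGK-cre mice, in which Cre acts in the embryo throughout the body. Clrn2-/- mice carried the clarinet allele, a tryptophan-to-stop nonsense mutation, and Clrn1-/-Clrn2-/- mice came from crosses of the 2 lines. Wild-type mice came from separate breedings and were not littermates, so that breeding and genotype cannot be told apart. The tissue had been freed of the stria vascularis and modiolus. Whether a library held 1 animal or a pool is not given in the sources used here, so p-values measure the spread between these libraries.

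Wnt ligands are secreted lipid-modified proteins that bind Frizzled receptors, and with the co-receptors Lrp5 or Lrp6 they spare beta-catenin from a destruction complex built on Axin, after which beta-catenin acts with TCF/LEF factors on target genes. R-spondins enhance the signal by removing the ubiquitin ligases Rnf43 and Znrf3 that clear Frizzled receptors from the cell surface. Sfrp proteins and Wif1, in contrast, bind Wnt ligands, and several but not all Dkk proteins act on the co-receptors. Axin2, Nkd1, Nkd2, Notum, Rnf43 and Znrf3 are induced by the pathway and restrain it. In the cochlea, Wnt signaling is known for its part in the proliferation of sensory progenitors, the formation of hair cells and the orientation of their bundles.

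Libraries held 30008679 to 41049302 counts on genes. Clrn1 counted 25.8 ± 2.47 CPM (counts scaled to TMM-adjusted library size; SD, n = 3) in wild-type and 28.8 ± 2.83 in Clrn2-/- mice, against 2.83 ± 0.184 in Clrn1-/- and 2.30 ± 0.482 in Clrn1-/-Clrn2-/- mice. Clrn2 counted 2.72 ± 0.727 CPM in wild-type, 1.23 ± 0.172 in Clrn2-/-, 1.08 ± 0.138 in Clrn1-/-Clrn2-/- and 0.916 ± 0.107 in Clrn1-/- mice, so that it was low in all 3 mutants, the one with intact Clrn2 alleles included. Markers of hair cells, 12 genes, and of supporting cells, 12 genes, were detected in every genotype, and so were those of neurons, 13 genes, and of myelinating glia, 10 genes, whose summed level lay between 21084 and 23283 CPM. In these bulk libraries, fewer cells of a type and less RNA per cell cannot be told apart. Wild-type replicate 3 lay apart from the other wild-type libraries for several Wnt genes, with 48.6 CPM of Sfrp4 against 95.9 and 90.2, and 9.74 CPM of Rspo3 against 17.4 and 19.7.

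Of the 60 genes, 52 passed the filter on low counts, which asked for a count of about 10 in at least 3 libraries of any genotype. Wnt1, Wnt3a, Wnt8a and Rspo4 had at most 2, 1, 2 and 1 counts in any library. Wnt8b, Wnt10a and Dkk1 reached 11, 9 and 6 counts, and Dkk4 had no count in any of the 12 libraries, which allows a level of up to 0.100 CPM in the shallowest one by counting error alone.

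Per length of exon, the most abundant was Ctnnb1, at 119 ± 6.85 CPM per kilobase (SD over the 12 libraries). Dkk3, grouped by name with the antagonists, followed at 62.0 ± 3.57. The ranges of these 2 genes over the libraries overlapped neither with each other nor with the next gene. Sfrp5 at 30.7, Fzd9 at 26.8, Dvl1 at 20.4 and Wnt5a, a ligand of the beta-catenin-independent branch, at 17.2 CPM per kilobase came next, and Frzb at 16.3, Sfrp4 at 15.5, Fzd7 at 14.8 and Dvl3 at 14.7 completed the 10 highest. From Sfrp5 downward, each of them overlapped with its neighbor in range. Wnt5a was thus the ligand with the highest level, and 3 of the other ligands tested, Wnt2, Wnt9b and Wnt10b, had under 40 counts in every library.

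**Figure D1:**
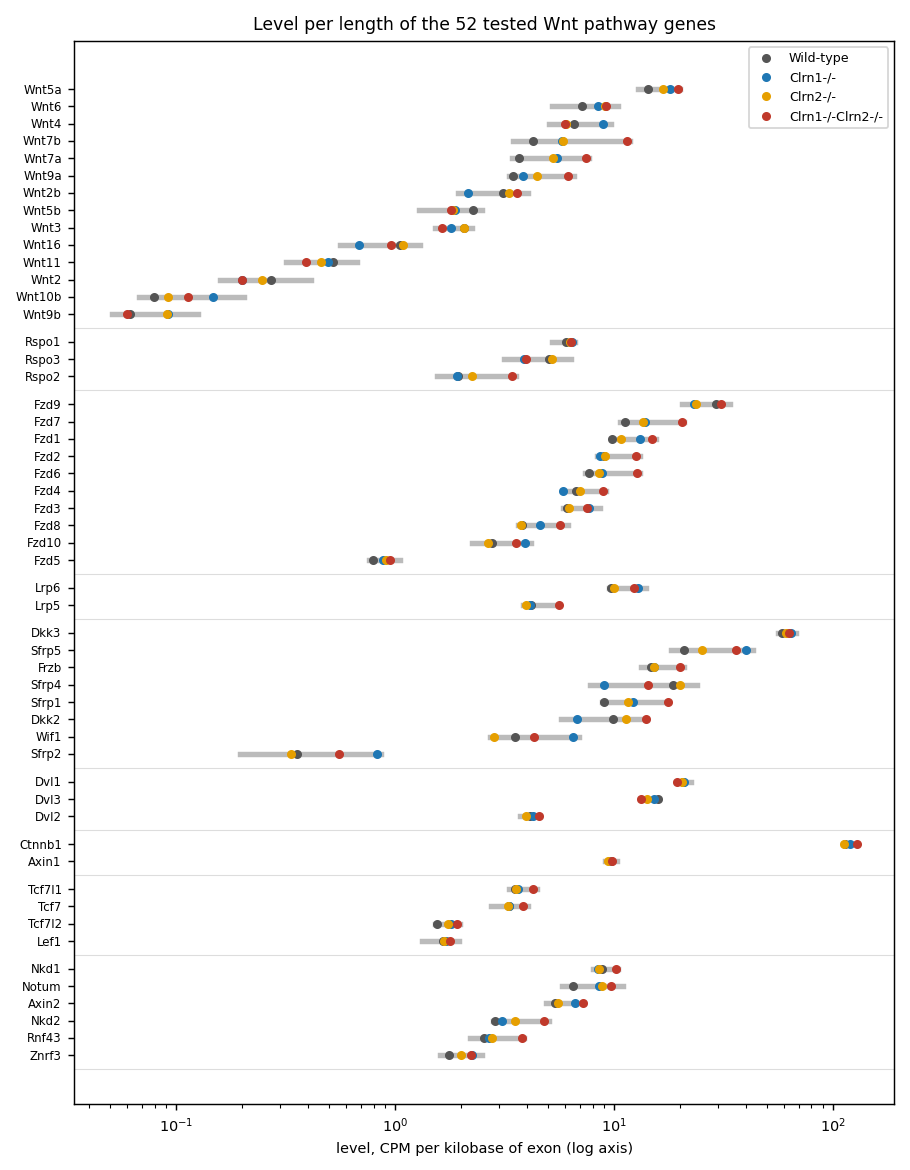
Level of the 52 tested Wnt pathway genes, as CPM per kilobase of exon on a log axis, grouped by role from Wnt ligands at the top to feedback inhibitors at the bottom. Points are the means of the 3 libraries of each genotype and grey bars span all 12 libraries; beta-catenin (Ctnnb1, 119) and Dkk3 (62.0) lay above all others.

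The first question was how the pathway differed from wild-type when both clarins were missing. In Clrn1-/-Clrn2-/- mice, 11 of the 52 genes were upregulated and 0 downregulated, taking as called an adjusted p of at most 0.05 by the quasi-likelihood test of edgeR and a change of at least 1.5-fold. The upregulated genes were the ligands Wnt7b, Wnt7a and Wnt9a, the agonist Rspo2, the receptors Fzd7, Fzd6 and Fzd1, the antagonists Sfrp1 and Sfrp5, and the feedback inhibitors Nkd2 and Rnf43. They made up 21.2% of the genes, while 5.88% of all 19052 genes tested were called higher and 4.02% lower in this comparison. By edgeR's unadjusted p under 0.05, 33 genes were higher and 3 lower, against 23.2% and 22% of all genes, and limma-voom called 11 and 0 and DESeq2 10 and 0. The median log2 fold change was 0.32 over the 52 genes and 0.00101 over all genes. By adjusted p alone, 28 genes were higher and 1 lower, against 19.1% and 17.9% of all genes. Levels in the 3 mutant libraries were all above the 3 wild-type ones for 30 of the 52 genes, or 57.7%, against 25% of all genes. Without wild-type replicate 3, 15 genes were called, 12 higher and 3 lower, the latter being Wnt11, Rspo3 and Sfrp4.

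**Figure D2:**
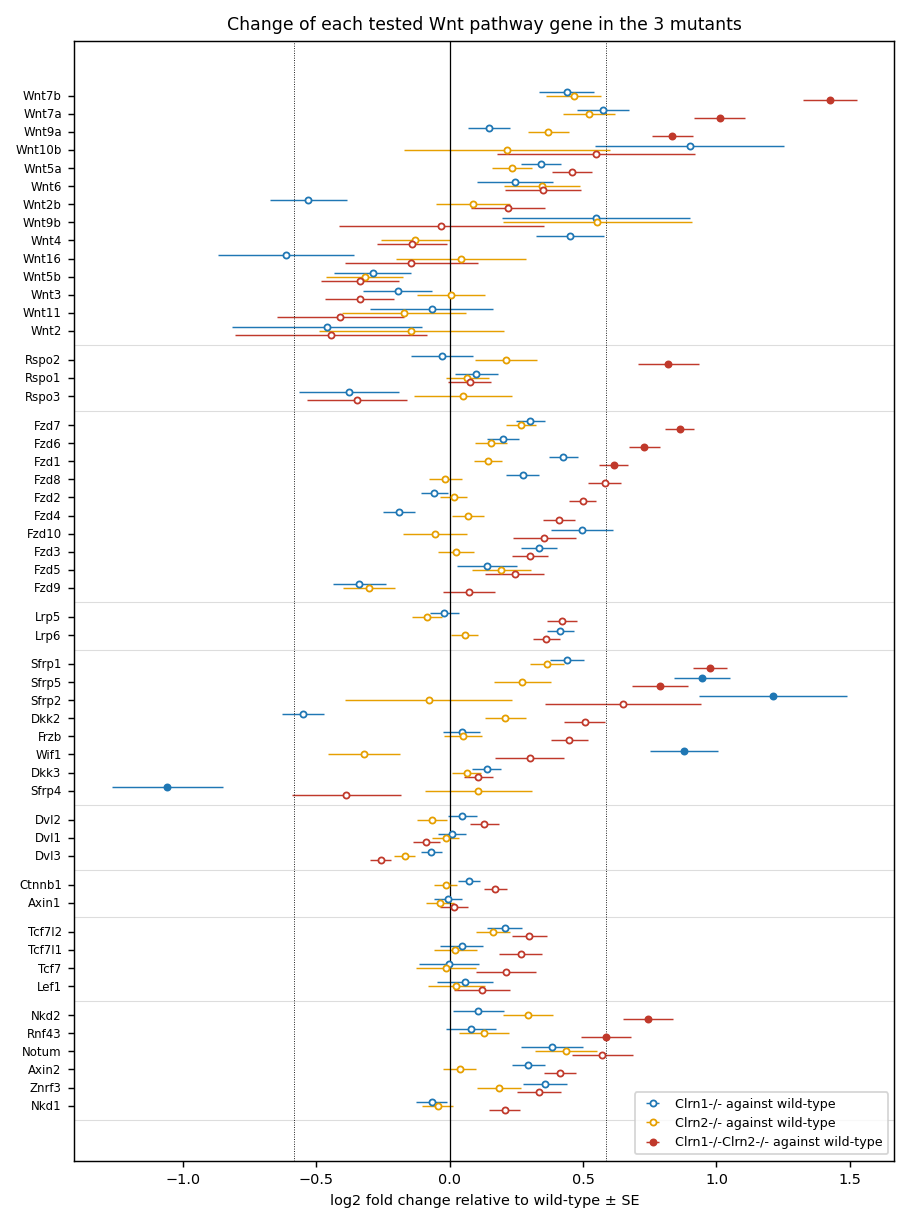
Log2 fold change relative to wild-type ± SE of the 52 tested Wnt pathway genes in Clrn1-/- (blue), Clrn2-/- (orange) and Clrn1-/-Clrn2-/- mice (red), grouped by role and sorted by the change in the double mutant. Filled points passed both thresholds and dotted lines mark a 1.5-fold change; 11 red points, 4 blue points and 0 orange points are filled.

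Wnt7b, a ligand of epithelia on chr15:85535437-85582473 of the mouse build GRCm38, had the largest change of the set. It counted 21.5, 16.9 and 24.2 CPM in wild-type, 28.4, 26.6 and 29.8 in Clrn1-/-, 28.4, 25.6 and 32.3 in Clrn2-/- and 55.3, 57.9 and 55.2 in Clrn1-/-Clrn2-/- libraries. All libraries of the double mutant lay above every other one, and those of either single mutant above the 3 wild-type ones. The log2 fold change relative to wild-type was 1.43 ± 0.10 (SE), or 2.69-fold, in Clrn1-/-Clrn2-/- mice (edgeR, adjusted p = 3.35e-08), and 0.44 ± 0.10 and 0.46 ± 0.10 in Clrn1-/- and Clrn2-/- mice (adjusted p = 0.00527 and 0.00681 by edgeR). Its paralog Wnt7a, on chr6:91363981-91411363, counted 10.8, 11.2 and 13.1 CPM in wild-type, 16.9, 17.0 and 18.4 in Clrn1-/-, 16.5, 14.5 and 19.4 in Clrn2-/- and 22.5, 23.9 and 24.4 in Clrn1-/-Clrn2-/- libraries. The order was the same, with no overlap between wild-type and any mutant. Wnt7a rose by 1.01 ± 0.10 on the log2 scale in the double mutant (edgeR, adjusted p = 6.53e-07), and by 0.58 ± 0.10 and 0.52 ± 0.10 in Clrn1-/- and Clrn2-/- mice, just under the fold minimum.

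Wnt9a, a ligand on chr11:59306928-59333552, counted 11.6, 12 and 11.0 CPM in wild-type, 12.1, 13.4 and 12.8 in Clrn1-/-, 14.4, 14.6 and 15.8 in Clrn2-/- and 18.5, 21.9 and 21.3 in Clrn1-/-Clrn2-/- libraries. The 4 genotypes did not overlap with one another. Its log2 fold change in the double mutant was 0.83 ± 0.08 (edgeR, adjusted p = 4.51e-07). Of the other ligands, Wnt5a alone passed the adjusted p in the double mutant, with 101 to 124 CPM in wild-type and 151 to 157 CPM in Clrn1-/-Clrn2-/- libraries (log2 fold change 0.46 ± 0.08; edgeR, adjusted p = 0.000167). The remaining 10 ligands had log2 fold changes between -0.45 and 0.55, none of which passed. Thus 4 of 14 ligands rose by adjusted p, against 19.1% of all genes.

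Rspo2, the R-spondin on chr15:43020794-43170826, was called higher in the double mutant. It counted 10.9, 8.19 and 10.8 CPM in wild-type, 10.8, 7.99 and 10.5 in Clrn1-/-, 11.6, 11.3 and 11.7 in Clrn2-/- and 16.6, 17.9 and 18.3 in Clrn1-/-Clrn2-/- libraries. Wild-type and Clrn1-/- libraries overlapped, and the double mutant lay above all 9 others. The log2 fold change relative to wild-type was 0.82 ± 0.11 (edgeR, adjusted p = 2.99e-05), and that in Clrn1-/- and Clrn2-/- mice was -0.03 ± 0.12 and 0.21 ± 0.12 (adjusted p = 0.886 and 0.253 by edgeR). Rspo1 and Rspo3 did not pass in any comparison.

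All 10 Frizzled receptors had a positive log2 fold change in Clrn1-/-Clrn2-/- mice, as did 9553 of all 19052 genes. Of the 10, 8 passed the adjusted p and 3 of these also the fold minimum, against 19.1% and 5.88% of all genes. Fzd7, on chr1:59482424-59486955, counted 52.4, 52.3 and 48.3 CPM in wild-type, 64.2, 63.1 and 61.3 in Clrn1-/-, 57.9, 59.2 and 66.9 in Clrn2-/- and 88.9, 94.1 and 94.8 in Clrn1-/-Clrn2-/- libraries. The double mutant stood clear of the single mutants, and these stood clear of wild-type. The log2 fold change was 0.86 ± 0.05 (edgeR, adjusted p = 1.02e-08). Fzd6, a receptor also known from planar cell polarity on chr15:39006034-39038188, counted 39.2, 36.1 and 35.5 CPM in wild-type, 43.3, 41.6 and 42.4 in Clrn1-/-, 40.3, 38.3 and 44.7 in Clrn2-/- and 58.4, 63.7 and 61.7 in Clrn1-/-Clrn2-/- libraries. Only the Clrn2-/- libraries overlapped with wild-type ones, and the log2 fold change in the double mutant was 0.73 ± 0.06 (edgeR, adjusted p = 1.23e-07). Fzd1, on chr5:4753839-4758035, counted 40.7, 40.9 and 41.4 CPM in wild-type, 56.7, 57.0 and 51.8 in Clrn1-/-, 42.2, 46.3 and 47.5 in Clrn2-/- and 62.9, 65.2 and 60.4 in Clrn1-/-Clrn2-/- libraries. No 2 genotypes overlapped for Fzd1, whose log2 fold change was 0.61 ± 0.05 (edgeR, adjusted p = 2.8e-07) and fell to 0.58, under the fold minimum, without Clrn1-/-Clrn2-/- replicate 2. Fzd1, Fzd10 and Fzd9 lie on the chromosome of Clrn2, 40.7, 83.1 and 89.8 megabases from it, and the part of the flanking chromosome was not tested. Fzd8, Fzd2, Fzd4, Fzd10 and Fzd3 rose by 0.30 to 0.58 on the log2 scale, and Fzd5 and Fzd9 had changes of 0.24 and 0.07 that did not pass.

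The promoter of Fzd7 is shown because it alone, of the upregulated genes with a sequence, held a short TCF/LEF-type motif, with those of Wnt7a and Sfrp5 for comparison. Each window runs from 250 bases before to 50 bases after the RefSeq start site, 5′ to 3′ on the strand of the gene, on GRCm38.p6, at chr1:59481897-59482196 on the plus strand for Fzd7, chr6:91411304-91411603 on the minus strand for Wnt7a and chr19:42202203-42202502 on the minus strand for Sfrp5. Capitals mark the match.
Fzd7: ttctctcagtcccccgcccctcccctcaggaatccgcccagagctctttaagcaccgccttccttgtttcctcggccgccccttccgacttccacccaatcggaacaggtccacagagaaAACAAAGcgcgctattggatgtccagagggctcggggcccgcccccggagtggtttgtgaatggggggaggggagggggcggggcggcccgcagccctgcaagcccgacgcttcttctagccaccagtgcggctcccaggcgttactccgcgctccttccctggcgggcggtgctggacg
Wnt7a: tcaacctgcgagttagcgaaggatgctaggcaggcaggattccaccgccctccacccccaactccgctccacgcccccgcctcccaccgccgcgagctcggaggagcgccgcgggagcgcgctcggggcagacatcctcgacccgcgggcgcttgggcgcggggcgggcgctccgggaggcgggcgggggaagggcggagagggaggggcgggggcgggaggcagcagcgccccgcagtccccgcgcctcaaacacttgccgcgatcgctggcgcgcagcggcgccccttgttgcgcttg
Sfrp5: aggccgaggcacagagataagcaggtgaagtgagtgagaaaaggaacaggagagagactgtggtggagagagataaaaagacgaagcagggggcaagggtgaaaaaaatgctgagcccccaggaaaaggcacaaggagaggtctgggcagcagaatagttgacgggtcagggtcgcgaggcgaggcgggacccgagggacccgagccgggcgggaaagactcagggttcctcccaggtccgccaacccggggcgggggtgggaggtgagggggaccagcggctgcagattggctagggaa
The motif searched was CTTTG followed by 2 bases that were each A or T, on both strands. The match in Fzd7 was AACAAAG, which is CTTTGTT read on the other strand, and began at position -130 from the start site. A match was found in 7 of 51 promoters of the 41 genes with a sequence, or 13.7%, and in 5544 of all 32851 promoters, or 16.9%. Of the 11 upregulated genes, 7 had a sequence and 1 a match. The other genes with a match were Dkk1, Lef1, Tcf7l2, Wnt3, Wnt5b and Wnt11, none of which was called. The GC content of the promoters had a median of 67.3% in the set and 52.7% overall.

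The co-receptors Lrp5 and Lrp6, which pair with Frizzled receptors, both passed the adjusted p without reaching the fold minimum, where 19.1% of all genes were higher by adjusted p. Lrp5 counted 43.2, 41.9 and 37.3 CPM in wild-type and 54.9, 54.0 and 54.9 in Clrn1-/-Clrn2-/- libraries, and Lrp6 136, 131 and 130 against 171, 173 and 167. Neither gene overlapped between these genotypes. The log2 fold changes were 0.42 ± 0.05 for Lrp5 (edgeR, adjusted p = 1.65e-05) and 0.36 ± 0.05 for Lrp6 (edgeR, adjusted p = 3.25e-05).

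Among the secreted antagonists, 8 were tested, of which 2 were upregulated in Clrn1-/-Clrn2-/- mice and 4 were higher by adjusted p. The shares of all genes were 5.88% and 19.1%. Sfrp1, on chr8:23411502-23449632, counted 40.8, 38.4 and 39.2 CPM in wild-type, 56.9, 50.1 and 53.7 in Clrn1-/-, 54.6, 45.2 and 52.6 in Clrn2-/- and 77.9, 78.1 and 77.2 in Clrn1-/-Clrn2-/- libraries. Both single mutants lay between wild-type and the double mutant, and the log2 fold change of the latter was 0.98 ± 0.06 (edgeR, adjusted p = 1.14e-08). Sfrp5, on chr19:42197971-42202252, counted 34.6, 41.8 and 43.2 CPM in wild-type, 70.1, 82.3 and 77.9 in Clrn1-/-, 54.3, 41.9 and 48.3 in Clrn2-/- and 58.9, 74.6 and 73.0 in Clrn1-/-Clrn2-/- libraries. Here the Clrn1-/- and double-mutant libraries overlapped, and both were above wild-type, by 0.94 ± 0.10 and 0.79 ± 0.10 on the log2 scale (edgeR, adjusted p = 8.7e-06 and 2.16e-05). Dkk2 and Frzb rose by 0.51 ± 0.08 and 0.45 ± 0.07 in the double mutant.

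All 6 feedback inhibitors passed the adjusted p as higher in Clrn1-/-Clrn2-/- mice, and 2 also the fold minimum, against 19.1% and 5.88% of all genes. Nkd2, which binds Dishevelled, on chr13:73818534-73847631, counted 13.7, 14.5 and 13.5 CPM in wild-type, 14.1, 15.8 and 15.0 in Clrn1-/-, 14.4, 17.1 and 19.7 in Clrn2-/- and 21.5, 23.7 and 24.5 in Clrn1-/-Clrn2-/- libraries. Both single mutants overlapped with wild-type, the double mutant with none, and its log2 fold change was 0.74 ± 0.09 (edgeR, adjusted p = 1.28e-05). Rnf43, a ubiquitin ligase for Frizzled receptors on chr11:87662722-87735539, counted 16.6, 14.4 and 19.0 CPM in wild-type, 19.3, 16.9 and 16.8 in Clrn1-/-, 19.1, 16.4 and 19.2 in Clrn2-/- and 24.1, 25.6 and 25.4 in Clrn1-/-Clrn2-/- libraries. Again only the double mutant stood apart. Its log2 fold change was 0.59 ± 0.09 (edgeR, adjusted p = 0.000111), or 1.50-fold, so close to the fold minimum that the call was lost in 13 of 22 alternatives, and Rnf43 shares its strand with the overlapping gene 1110028F11Rik.

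Axin2, a widely used reporter of beta-catenin signaling, counted 31.1, 31.3 and 27.0 CPM in wild-type, 37.0, 37.6 and 34.9 in Clrn1-/-, 29.5, 29.8 and 32.4 in Clrn2-/- and 39.3, 39.4 and 40.2 in Clrn1-/-Clrn2-/- libraries. It was higher than in wild-type in the 2 genotypes without Clrn1, by 0.29 ± 0.06 in Clrn1-/- and 0.41 ± 0.06 in Clrn1-/-Clrn2-/- mice on the log2 scale (edgeR, adjusted p = 0.00205 and 5.58e-05), and overlapped with wild-type in Clrn2-/- mice. Notum, a secreted enzyme that strips Wnt ligands of their lipid, rose by 0.57 ± 0.12 in the double mutant, by 0.39 ± 0.12 in Clrn1-/- and by 0.44 ± 0.12 in Clrn2-/- mice (edgeR, adjusted p = 0.00099, 0.0221 and 0.0195). Znrf3 rose by 0.34 ± 0.08 and Nkd1 by 0.21 ± 0.06 in the double mutant.

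Ctnnb1, which encodes beta-catenin, counted 596, 592 and 594 CPM in wild-type and 672, 668 and 668 in Clrn1-/-Clrn2-/- libraries, which is 0.17 ± 0.04 higher on the log2 scale (edgeR, adjusted p = 0.00399). The change of Axin1 was 0.02 ± 0.05 on this scale (adjusted p = 0.856 by edgeR). Dvl3, one of the Dishevelled genes that relay the signal from the receptors, was the single gene that was lower by adjusted p, at 102, 102 and 103 CPM in wild-type, 92.6, 91.1 and 89.1 in Clrn2-/- and 86.5, 85.0 and 84.6 in Clrn1-/-Clrn2-/- libraries. Relative to wild-type it changed by -0.26 ± 0.04 on the log2 scale when both clarins were missing and by -0.17 ± 0.04 without clarin-2 (adjusted p = 7.27e-05 and 0.00877 by edgeR). Of the TCF/LEF factors, Tcf7l2 and Tcf7l1 rose by 0.30 ± 0.06 and 0.27 ± 0.08, and the factors Tcf7 and Lef1, themselves known targets, had changes of 0.21 ± 0.11 and 0.12 ± 0.11 that did not pass (edgeR, adjusted p = 0.155 and 0.408).

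**Figure D3:**
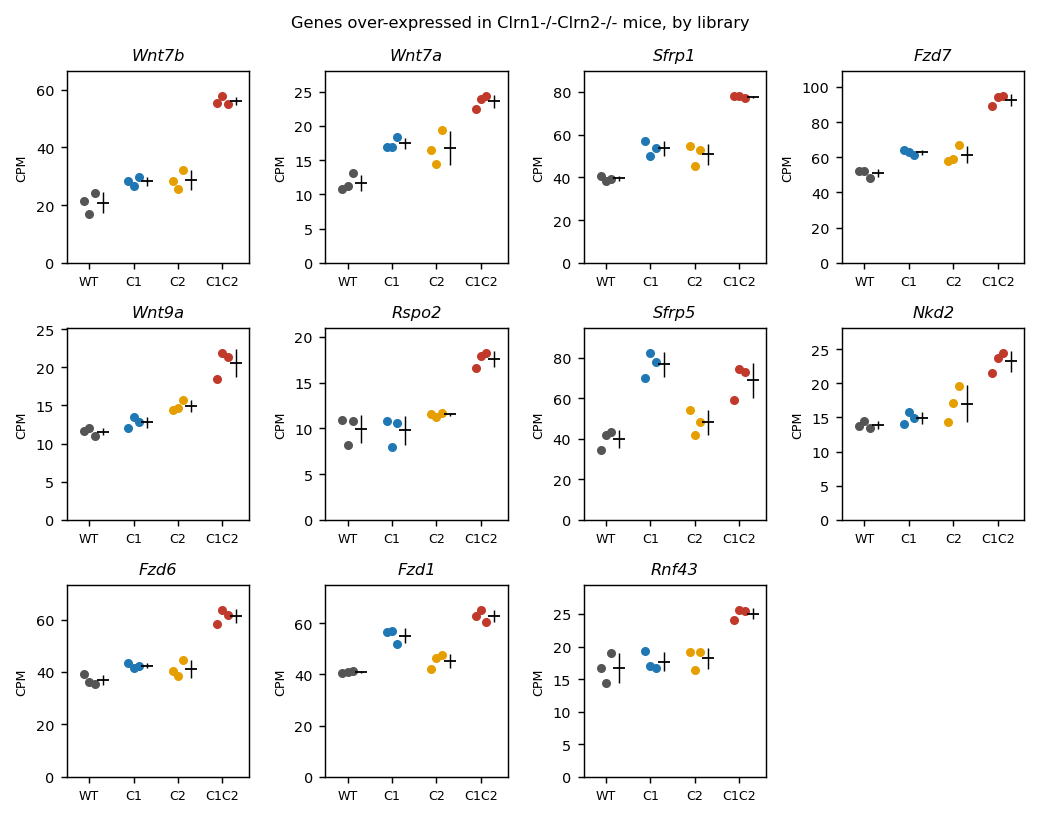
CPM of the 11 genes upregulated in Clrn1-/-Clrn2-/- mice, with 1 colored point per library and the mean ± SD of 3 libraries in black beside them, for wild-type (WT), Clrn1-/- (C1), Clrn2-/- (C2) and Clrn1-/-Clrn2-/- (C1C2) mice. All axes start at 0, and for each gene other than Sfrp5 the double-mutant points lie above those of the 3 other genotypes, as in Wnt7b with 55.2 to 57.9 CPM.

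Other cell types moved along with these changes, and their part in them was not tested. Of 10 macrophage markers, 7 were upregulated in the double mutant, and their summed level was 171 to 218 CPM in wild-type, 296 to 323 in Clrn1-/-, 205 to 255 in Clrn2-/- and 307 to 359 in Clrn1-/-Clrn2-/- libraries. Neuronal markers summed to 12035 to 13174 CPM in wild-type and 8377 to 8508 in double-mutant libraries, with 3 of 13 downregulated and 2 upregulated. Hair cell markers summed to 3688 to 4200 CPM in wild-type and 2557 to 2786 in double-mutant libraries, with 2 of 12 genes called in each direction. While this sum was lower, 9 of the 12 genes had a positive log2 fold change. By adjusted p alone, 6 hair cell markers were higher and 3 lower, against 19.1% and 17.9% of all genes. Supporting cell markers summed to 2585 to 2912 CPM and 2736 to 2849 CPM in these genotypes, with 3 of 12 called higher and 2 lower. Fibroblast markers summed to 7373 to 8610 and 7975 to 9039 CPM, with 3 of 12 higher and 1 lower, and cartilage markers to 898 to 995 and 1306 to 1465 CPM, with 2 of 6 tested higher and 1 lower. Of the other lists, bone had 1 of 11 genes higher and 1 lower, stria vascularis 2 and 3 of 12, skeletal muscle 2 of 9 lower and red blood cells 2 of 7 lower, and endothelial markers summed to 312 to 355 and 353 to 359 CPM. No marker was at 0 in all libraries.

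The question for Clrn1-/- mice was whether loss of clarin-1 alone changed the same pathway. Here 3 of the 52 genes were upregulated and 1 downregulated, while 3.52% of all genes were called higher and 3.7% lower, and all 4 were secreted antagonists. By adjusted p alone, 19 genes were higher and 5 lower, against 13.6% and 13.3% of all genes, and the median log2 fold change was 0.10 against -0.00309 over all genes. The number called was 8, with 4 in each direction, without wild-type replicate 3, and 7 without Clrn1-/- replicate 2. The wild-type libraries are shared with the comparison of the double mutant.

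Sfrp2, on chr3:83766321-83774316, was a low-count gene, with 15 to 38 counts in wild-type and 59 to 71 in Clrn1-/- libraries. It counted 0.421, 1.04 and 0.835 CPM in wild-type, 1.87, 1.66 and 1.84 in Clrn1-/-, 0.753, 0.459 and 0.955 in Clrn2-/- and 0.951, 1.31 and 1.34 in Clrn1-/-Clrn2-/- libraries. The Clrn1-/- libraries lay above all others, and the log2 fold change was 1.21 ± 0.28 (edgeR, adjusted p = 0.00421). Wif1, on chr10:121033960-121100650, counted 6.57, 10.0 and 9.13 CPM in wild-type, 16.9, 15.4 and 15.1 in Clrn1-/-, 6.67, 6.83 and 7.14 in Clrn2-/- and 9.34, 10.0 and 12.2 in Clrn1-/-Clrn2-/- libraries. It too was highest in Clrn1-/- mice, by 0.88 ± 0.13 on the log2 scale (edgeR, adjusted p = 0.000102), and the double mutant overlapped with wild-type.

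Sfrp4, on chr13:19623104-19632994, went the opposite way. It counted 95.9, 90.2 and 48.6 CPM in wild-type, 41.1, 39.1 and 32.5 in Clrn1-/-, 67.1, 100.3 and 85.2 in Clrn2-/- and 73.7, 53.2 and 52.7 in Clrn1-/-Clrn2-/- libraries. Wild-type libraries were widely spread, but the Clrn1-/- libraries were below all others, at -1.06 ± 0.21 relative to wild-type on the log2 scale (edgeR, adjusted p = 0.00146), and at -1.31 without wild-type replicate 3. Dkk2, a Dkk that can act on Lrp6 in either direction, counted 35.9, 35.9 and 38.1 CPM in wild-type, 27.1, 21.3 and 26.8 in Clrn1-/-, 46.4, 41.2 and 39.4 in Clrn2-/- and 51.96, 51.8 and 52.4 in Clrn1-/-Clrn2-/- libraries. None of the 4 genotypes overlapped. It was lower than wild-type in Clrn1-/- mice with -0.55 ± 0.08 on the log2 scale (edgeR, adjusted p = 0.000101), short of the fold minimum. The secreted antagonists of Clrn1-/- mice were thus split, with 4 of 8 higher and 2 lower by adjusted p, against 13.6% and 13.3% of all genes.

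The receptors of Clrn1-/- mice were split as well, with 6 of 10 higher and 2 lower by adjusted p, against 13.6% and 13.3% of all genes. Fzd1, Fzd3, Fzd6, Fzd7, Fzd8 and Fzd10 were higher by adjusted p, by 0.20 to 0.50 on the log2 scale, and Fzd4 and Fzd9 were lower, with log2 fold changes of -0.19 ± 0.06 and -0.34 ± 0.10. Lrp6 was higher by 0.41 ± 0.05 (edgeR, adjusted p = 2.15e-05), while Lrp5 had a change of -0.02 ± 0.05. Wnt2b was lower by adjusted p and Wnt4, Wnt5a, Wnt7a and Wnt7b were higher. In these libraries 4 of 10 macrophage markers were called higher and 6 of 7 red blood cell markers lower, the latter summing to 286 to 389 CPM against 710 to 1160 in wild-type. Of 12 fibroblast markers 3 were called higher and 1 lower, while their sum was 6136 to 6642 CPM against 7373 to 8610 in wild-type. Supporting cell markers summed to 2228 to 2384 CPM against 2585 to 2912 and neuron markers to 11120 to 11571 against 12035 to 13174. Hair cell markers summed to 2874 to 3093 CPM against 3688 to 4200 and cartilage markers to 1197 to 1406 against 898 to 995. By adjusted p alone, however, 7 of 12 supporting cell markers were higher and 4 lower, against 13.6% and 13.3% of all genes. For neurons these numbers were 1 and 5 of 13, for hair cells 2 and 4 of 12 and for cartilage 3 and 1 of 6. Bone markers summed to 1756 to 1872 CPM against 1977 to 2188 and skeletal muscle markers to 481 to 539 against 542 to 627. None of these sums of Clrn1-/- libraries overlapped with wild-type, and the part of these cells in the changes was not tested. Sfrp2, Wnt2b, Dkk2 and Lef1 lie on the chromosome of Clrn1, 24.9, 46.1, 73.2 and 72.2 megabases from it.

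In Clrn2-/- mice, 0 of the 52 genes were called by edgeR, limma-voom or DESeq2, against 1.24% of all genes called higher and 1.42% lower by edgeR. At an unadjusted p under 0.05, 15 genes were higher and 4 lower, against 13.8% of all genes in each direction, and by adjusted p 7 were higher and 1 lower, against 7.14% and 7.07% of all genes. The 7 were Wnt5a, Wnt7a, Wnt7b, Wnt9a, Fzd7, Sfrp1 and Notum, which rose by 0.23 to 0.52 on the log2 scale, each by less than 1.5-fold. The lower one was Dvl3. Without wild-type replicate 3, 2 genes were called, Wnt7a and Wnt7b, and without Clrn2-/- replicate 2 Wnt7a alone. In Clrn2-/- libraries, 5 of 7 red blood cell markers were called lower and 3 of 12 hair cell markers higher, and 2 of 12 fibroblast markers were lower. The fibroblast markers summed to 5676 to 6235 CPM, the supporting cell markers to 2287 to 2565 and the neuron markers to 10419 to 11985. The red blood cell markers summed to 438 to 657 CPM and the bone markers to 1845 to 1891. All these sums lay below wild-type without overlap, whereas the hair cell markers, at 3362 to 3967 CPM, overlapped with wild-type. Yet 2 of 12 supporting cell markers and 1 of 13 neuron markers were called higher, and 0 of either list lower. By adjusted p alone, 5 supporting cell markers were higher and 3 lower, and 1 neuron marker was higher and 3 lower. The part of these cells in the changes was not tested.

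**Figure D4:**
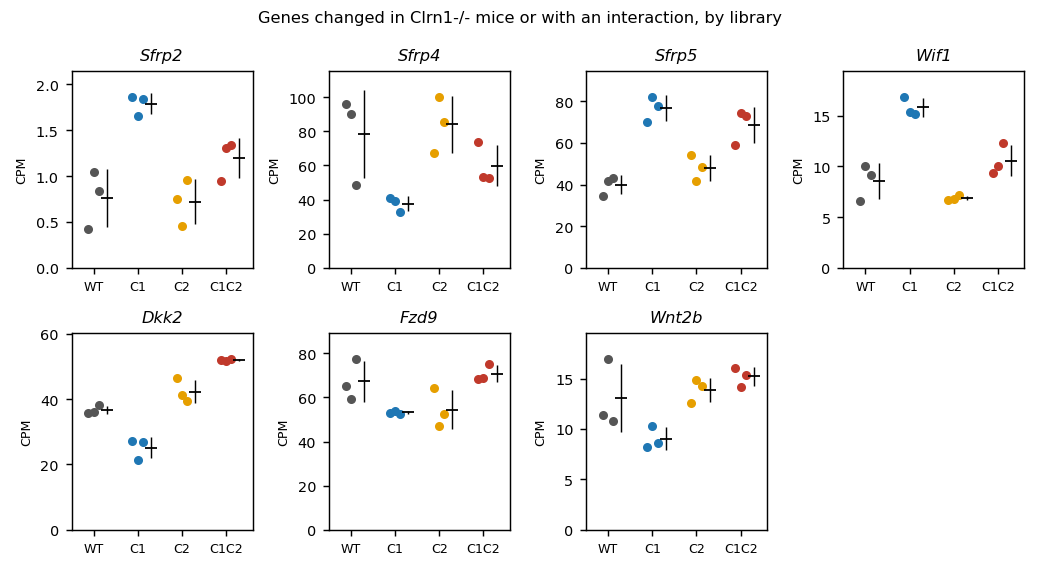
CPM of the genes called in Clrn1-/- mice relative to wild-type (Sfrp2, Sfrp4, Sfrp5, Wif1) and of those with an interaction of the genotypes that were not called in the double mutant (Dkk2, Fzd9, Wnt2b), with 1 colored point per library and the mean ± SD of 3 libraries in black; WT is wild-type, C1 Clrn1-/-, C2 Clrn2-/- and C1C2 Clrn1-/-Clrn2-/-. All axes start at 0; Sfrp2 and Wif1 are highest in C1, and Dkk2 is lowest in C1 (21.3 to 27.1 CPM) and highest in C1C2 (51.8 to 52.4 CPM).

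The single mutants were next compared with each other. In Clrn1-/- relative to Clrn2-/- mice, Sfrp2, Wif1 and Sfrp5 were higher and Sfrp4, Dkk2 and Wnt2b lower, which made 3 of 52 in each direction, against 2.4% of all genes higher and 2.34% lower. The log2 differences were 1.29 ± 0.28 for Sfrp2, 1.20 ± 0.13 for Wif1, 0.67 ± 0.10 for Sfrp5, -1.16 ± 0.21 for Sfrp4, -0.76 ± 0.08 for Dkk2 and -0.62 ± 0.14 for Wnt2b. Hence 5 of the 6 genes were secreted antagonists. Wnt7a and Wnt7b differed by 0.05 ± 0.09 and -0.03 ± 0.10 between the single mutants (edgeR, adjusted p = 0.743 and 0.893).

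The double mutant was compared with each single mutant to see what the second loss added. Relative to Clrn1-/- mice, 8 genes were higher and 1 lower, against 4.62% and 2.61% of all genes. The log2 differences were 1.06 ± 0.08 for Dkk2, 0.99 ± 0.10 for Wnt7b, 0.85 ± 0.11 for Rspo2, 0.75 ± 0.14 for Wnt2b, 0.69 ± 0.08 for Wnt9a, 0.67 ± 0.21 for Sfrp4, 0.64 ± 0.09 for Nkd2 and 0.60 ± 0.06 for Fzd4. Wnt4, a ligand that counted 37.6, 40.5 and 34.8 CPM in Clrn1-/- and 29.5, 24.3 and 21.3 in double-mutant libraries, was lower, with a log2 difference of -0.59 ± 0.13 (edgeR, adjusted p = 0.00234). Its levels in the double mutant overlapped with those in wild-type, of 29.7, 30.3 and 22.8 CPM. Of these calls, those of Fzd4 and Sfrp4 were each lost in 4 of 22 alternatives, that of Wnt4 in 3 and those of Nkd2 and Wnt2b in 1.

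Relative to Clrn2-/- mice, 6 genes were higher and 0 lower, against 3.67% and 1.43% of all genes, and 29 were higher and 3 lower at an unadjusted p under 0.05 by edgeR, against 19.5% and 18.5%. The log2 differences were 0.96 ± 0.10 for Wnt7b, 0.62 ± 0.13 for Wif1, 0.61 ± 0.06 for Sfrp1, 0.61 ± 0.11 for Rspo2, 0.60 ± 0.06 for Fzd8 and 0.59 ± 0.05 for Fzd7. Wnt7b and Rspo2 were the 2 genes called in the double mutant against each of the 3 other genotypes. The number called relative to Clrn2-/- mice was 3 without Clrn1-/-Clrn2-/- replicate 2, which ended the calls of Fzd7, Fzd8 and Rspo2, and 3 without replicate 3, which ended those of Fzd7, Rspo2 and Wif1.

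Whether the 2 losses added up on the log2 scale was tested with the interaction of the genotypes. It was positive for 4 of the 52 genes and negative for 0 past both thresholds, against 3.58% and 1.92% of all genes, and 16 were positive and 3 negative at an unadjusted p under 0.05 by edgeR, against 16% and 14.4%. The 4 were Dkk2 at 0.85 ± 0.11, Fzd9 at 0.71 ± 0.14, Wnt2b at 0.66 ± 0.20 and Rspo2 at 0.64 ± 0.16 (edgeR, adjusted p = 9.23e-05, 0.00241, 0.0312 and 0.0127). Fzd9 counted 65.0, 59.2 and 77.7 CPM in wild-type, 53.0, 54.1 and 52.6 in Clrn1-/-, 64.1, 47.0 and 52.5 in Clrn2-/- and 68.5, 68.7 and 75.2 in Clrn1-/-Clrn2-/- libraries, so that the double mutant overlapped with wild-type and lay above both single mutants. Wnt2b counted 11.4, 17.0 and 10.8 CPM in wild-type, 8.16, 10.3 and 8.62 in Clrn1-/-, 12.6, 14.9 and 14.2 in Clrn2-/- and 16.1, 14.2 and 15.4 in Clrn1-/-Clrn2-/- libraries. Clrn1-/- libraries were the lowest. Wnt2b shares its strand with the overlapping gene Gm43846, and its interaction was 0.47 and no longer called with counts taken without strand. In all, its call was lost in 9 of 21 alternatives, among them omissions of single libraries.

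For the genes with the largest changes, the interaction was 0.52 ± 0.14 for Wnt7b (edgeR, adjusted p = 0.0196), under the fold minimum, -0.08 ± 0.13 for Wnt7a (adjusted p = 0.73) and 0.17 ± 0.09 for Sfrp1 (adjusted p = 0.202). Of the Frizzled receptors, 6 of 10 had a positive interaction by adjusted p, namely Fzd9, Fzd2, Fzd4, Fzd6, Fzd8 and Fzd7, against 9.32% of all genes, and so did Lrp5 at 0.53 ± 0.08 but not Lrp6 at -0.11 ± 0.07. Fzd2, for example, counted 34.0, 32.8 and 31.9 CPM in wild-type, 30.8 to 32.4 in Clrn1-/- and 33.1 to 33.4 in Clrn2-/- but 48.3, 48.0 and 43.3 in Clrn1-/-Clrn2-/- libraries. Its single mutants both overlapped with wild-type and the double mutant with none.

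Genes of the pathway outside the set were taken from 7 lists, and their calls in the double mutant stand beside the 5.88% and 4.02% of all genes called higher and lower there. In Clrn1-/-Clrn2-/- mice, 1 of 5 tested genes of Wnt secretion and uptake was higher, Wls, the carrier that brings Wnt ligands to the cell surface, with 90.0 to 95.9 CPM in wild-type and 155 to 160 in the double mutant (log2 fold change 0.74; edgeR, adjusted p = 2.17e-08). Of 10 other receptors, Lgr6, a receptor of R-spondins, and Tspan12 were higher, and Lgr6 rose from 4.33, 4.60 and 4.25 CPM in wild-type to 8.89, 7.97 and 9.19 in Clrn1-/-, 7.18, 7.71 and 9.58 in Clrn2-/- and 19.6, 24.1 and 21.9 in Clrn1-/-Clrn2-/- libraries. No mutant overlapped with wild-type for Lgr6, whose log2 fold changes were 0.98, 0.89 and 2.32 (edgeR, adjusted p = 1.72e-05, 0.000123 and 6.05e-10). Of 8 other antagonists, Kremen2, a receptor of Dkk proteins at 1.59 to 2.11 CPM in wild-type, was lower in every mutant, changing by -0.64 without Clrn1, -0.60 without Clrn2 and -1.26 without both on the log2 scale. Tle3, 1 of 11 nuclear cofactors, and Cd44, Ccnd1 and Tnfrsf19, 3 of 12 other target genes, were higher in the double mutant, by 0.60, 1.19, 0.71 and 0.60 on the log2 scale, and Cd44 also in Clrn1-/- mice by 0.65. Of 19 genes of the destruction complex and cytoplasm, 4 were higher and 6 lower by adjusted p in the double mutant, and of 14 genes of planar cell polarity 4 were higher and 3 lower, in each case by less than 1.5-fold, where 19.1% and 17.9% of all genes were higher and lower by adjusted p.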

How the data were processed

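RNA of the organ of Corti was sequenced in 4 genotypes with 3 libraries each. The deposited values are counts per gene, obtained by the authors with STAR after strand-specific sequencing, on the mouse genome build GRCm38.p6 and the Gencode annotation, unnormalized and unpooled. The submitters' processing notes also name DESeq2. Each library has 3 columns, and the column that follows the strand of the kit was analysed. It held 95.2% to 95.6% of the stranded counts, and the 13.5% to 15.8% of reads that named no gene were left out.

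Analysis used edgeR 4.0.16 in R 4.3.3. Low genes were removed with filterByExpr (minimum count 10), and libraries were scaled by TMM (factors 0.963 to 1.02) and tested with the quasi-likelihood test over all 12 libraries with genotype alone, with Benjamini-Hochberg adjustment over all 19052 genes. Calls needed both an adjusted p no higher than 0.05 and a difference no smaller than 1.5-fold. The study's methods use limma-voom, and limma 3.58.1 and DESeq2 1.42.0 served as alternatives, beside other scaling, filters, counts without strand, a replicate block and the omission of each library. CPM values carry no pseudocount, and standard errors were derived from the test statistic. The intervals and floors of counts cover counting error only. Libraries of 1 genotype differed by 4.76 to 21.0 times the variance of counting alone, so none was a duplicate. Coordinates and exon lengths came from another Gencode release of the same build, matched by symbol. Promoter sequences came from RefSeq on GRCm38.p6. The script was tested on simulated data.

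The members, lists and tests were chosen with earlier results of these data known. The genes named are those called in any of 7 comparisons, the 10 with the highest level per length, those under the filter, and fixed feedback and core genes. Pairing by replicate number was checked by the correlation of deviations from the genotype means over 12453 genes. It was positive at all 3 numbers for wild-type and Clrn1-/- libraries, with 0.269, 0.126 and 0.105. For Clrn1-/- and Clrn2-/- libraries it was also positive but smaller, with 0.0377, 0.0243 and 0.0854. No label says that a number marks a shared litter or day.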

Additional observations from a re-analysis of the deposited data

Results flagged for a closer look

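For 4 genes the effect of losing Clrn1 differed with the state of Clrn2, as tested with the interaction of the genotypes over all genes by edgeR, where each value is the log2 change on losing Clrn1 in mice without Clrn2 minus that in mice with it. Dkk2 changed by -0.55 in Clrn1-/- relative to wild-type mice and by 0.30 in Clrn1-/-Clrn2-/- relative to Clrn2-/- mice, a difference of 0.85 (adjusted p = 9.23e-05), in 3 of 3 libraries each. Fzd9 changed by -0.34 and 0.38, a difference of 0.71 (adjusted p = 0.00241 by edgeR). Wnt2b changed by -0.53 and 0.13, a difference of 0.66 (adjusted p = 0.0312 by edgeR). Rspo2 changed by -0.03 and 0.61, a difference of 0.64 (adjusted p = 0.0127 by edgeR). Wnt2b and Dkk2 lie on the chromosome of Clrn1 and Fzd9 lies on that of Clrn2, 46.1, 73.2 and 89.8 megabases from these genes, and the part of the flanking chromosome was not tested.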

How the results depend on the processing

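No call changed sign under the 22 alternatives, and no scaling moved the median of all genes by over 0.1. Counts of called Wnt genes were within 1.5 times the reported number in all but 2 kinds of alternative. Without a fold minimum, the counts were 24 without Clrn1, 8 without Clrn2 and 29 without both relative to wild-type mice, 14 between the single mutants, 24 and 28 in the double mutant relative to Clrn1-/- and Clrn2-/-, and 13 for the interaction. With each library left out in turn, they ranged from 4 to 8, 0 to 2, 9 to 15, 5 to 7, 7 to 10, 3 to 9 and 3 to 4 in the same order. The low numbers of 3 relative to Clrn2-/- mice came without replicates 2 or 3 of the double mutant, and the high ones of 8 and 2 without wild-type replicate 3.

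With the replicate number as a block, 4, 0, 11, 6, 10, 6 and 4 genes were called, and the block ended none of the reported calls. In Clrn1-/- relative to wild-type mice, where the pairing correlations were positive at each replicate number, the block left 4 called. Between the single mutants, where they were also positive, it left 6.

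Of the calls relative to wild-type, Rnf43 was lost in 13 of 22 alternatives and Fzd1 in 1, and the other 13 were kept in all. The interaction of Wnt2b was lost in 9 of 21 alternatives and that of Rspo2 in 3, while those of Dkk2 and Fzd9 were kept in all 21. Relative to Clrn2-/- mice, Fzd7 was lost in 11, Fzd8 in 6, Rspo2 in 2 and Sfrp1 and Wif1 in 1 of 22. Relative to Clrn1-/- mice, Fzd4 and Sfrp4 were lost in 4, Wnt4 in 3 and Nkd2 and Wnt2b in 1, and between the single mutants Wnt2b in 4. The cause of these losses was not tested. Sfrp2, Wnt2, Wnt9b and Wnt10b had at most 71 counts in a library.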
